A study of Homo sapiens with 6 samples.

Results

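A set of 10 genes of plasma lipoproteins were followed here: APOB and MTTP, which build particles, APOA1, APOA2, LCAT and APOM of high-density lipoprotein (HDL), the exchangeable apolipoproteins APOE, APOC1 and APOC3, and APOH. They were taken by symbol from a list of such genes. The rule uses no measured value, although the list was drawn up with earlier results of these libraries known. All 10 of 10 were among the 14200 genes of the deposited table. The cells were Huh7, an established human hepatocellular carcinoma line grown in DMEM with serum, and poly(A) RNA was sequenced from 3 libraries of control cells and 3 of cells labelled SETD5-deficient. Silencing was by siRNA with the RNAiMAX reagent, and SETD5 is a SET-domain protein of chromatin. What the controls received, the time after transfection and whether replicates are separate cultures were not stated in the labels. The p-values below therefore describe a spread among 3 libraries a group, part or all of which could be technical. Those from limma, and its intervals, also draw on the spread of other genes. They can thus be narrower than a gene's own libraries would give.

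Hepatocytes assemble very-low-density lipoprotein around APOB, a very large protein that stays with its particle, and MTTP transfers triglyceride onto APOB while it is being made. HDL forms when APOA1 takes up cell cholesterol and phospholipid, and LCAT esterifies that cholesterol in plasma. Small apolipoproteins such as APOE and the APOC proteins move between particles and set how fast lipases and receptors clear them. Liver is the main source of most of these proteins.

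Levels are given in CPM (reads scaled to library size), means with SD over 3 libraries, and fold changes are differences of log2(CPM + 1), knockdown minus control. Reads recovered from the deposited values, over the genes of the table only, came to 14038447 to 17095417 per library. SETD5 was at 212, 210 and 202 CPM in controls 1 to 3 and at 136, 140 and 138 CPM in the knockdown libraries. The mean fell from 208 ± 5.56 to 138 ± 2.21 CPM (SD, n = 3 per group), to 0.664 times the control, so the knockdown was partial at the RNA level (limma adjusted p = 1.15e-17). All 9 hepatocyte markers were in the table, and their summed level was 37775 to 38538 CPM in controls and 35204 to 35733 CPM after knockdown. AFP, the fetal albumin relative, made up most of that sum (21336 and 20268 CPM). Of the 9 markers 7 were called lower, among them the plasma proteins TTR (420 to 260 CPM), RBP4 (559 to 368 CPM), AHSG (1224 to 868 CPM) and TF (3744 to 2937 CPM) and the receptor ASGR1 (146 to 86.5 CPM). ALB (6488 to 6912 CPM) and GC (182 to 209 CPM) were called higher. Most of these liver markers, though not ALB and GC, thus fell as well, where 26.5% of all tested genes were called lower. Marker lists of other cells had sums below that of the hepatocyte list. For 2 of 4 endothelial markers the sums were 0.786 to 1.35 CPM in controls and 0.614 to 0.938 CPM after knockdown. For 3 of 5 fibroblast and stellate cell markers the sums were 42.6 to 49.9 and 33.8 to 36.4 CPM, and for 4 of 6 enterocyte markers 13.8 to 16.5 and 25.5 to 28.4 CPM. The 3 of 6 leukocyte and macrophage markers summed to 254 to 280 and 621 to 699 CPM, which was nearly all LYZ (260 and 649 CPM), while the leukocyte marker PTPRC was at 1.13 and 1.59 CPM and the monocyte marker CD14 at 3.62 and 1.76 CPM. LYZ, the fibroblast marker COL3A1 and the enterocyte markers SI, CDX2 and LCT were called higher. CD14 and the fibroblast and stellate cell markers COL1A1 and PDGFRB were called lower. PTPRC and the enterocyte marker APOA4 were not called, and the endothelial markers were too low to be tested. No marker in the table was at 0 reads, and the part of other cell types in the results was not tested. In bulk RNA a smaller number of cells of a kind and less RNA per cell cannot be told apart.

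Promoters are shown for MTTP and APOH, both lower after knockdown, because they hold a match to a motif searched below. That of APOE, the member that rose, is also shown. They come from the RefSeq promoter table on GRCh38.p14, which matched 6 of the 10 members (APOA2, APOC1, APOE, APOH, APOM and MTTP), and run from 250 bases before to 50 bases after a gene's start. Capitals mark matches, on either strand, to any of 4 motifs. The core of HNF4 sites was searched as CAAAGTCC. The half-site of nuclear receptors was searched as AGGTCA, that of HNF1 as GTTAAT and the TATA box as TATAAA. No matches overlap. For genes with several starts, the libraries do not show which start was used.

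MTTP, chr4:99574574-99574873, + strand: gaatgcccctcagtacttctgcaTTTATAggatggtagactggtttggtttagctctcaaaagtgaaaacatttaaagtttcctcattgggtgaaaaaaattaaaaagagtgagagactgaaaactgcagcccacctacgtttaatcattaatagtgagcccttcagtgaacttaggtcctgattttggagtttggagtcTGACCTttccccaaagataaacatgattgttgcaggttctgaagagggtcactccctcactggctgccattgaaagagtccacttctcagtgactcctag
APOH, chr17:66229366-66229665, - strand: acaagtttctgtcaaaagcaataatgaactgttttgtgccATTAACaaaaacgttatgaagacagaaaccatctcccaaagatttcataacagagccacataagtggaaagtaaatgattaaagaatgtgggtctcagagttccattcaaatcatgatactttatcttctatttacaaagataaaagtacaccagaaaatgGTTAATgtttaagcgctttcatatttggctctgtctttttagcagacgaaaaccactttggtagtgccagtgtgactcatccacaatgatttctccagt
APOE, chr19:44905546-44905845, + strand: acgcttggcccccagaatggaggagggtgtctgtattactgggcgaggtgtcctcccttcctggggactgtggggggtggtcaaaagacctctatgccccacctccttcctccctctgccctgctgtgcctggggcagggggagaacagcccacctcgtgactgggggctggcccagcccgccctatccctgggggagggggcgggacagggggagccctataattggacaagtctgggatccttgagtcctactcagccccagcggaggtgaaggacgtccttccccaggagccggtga

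The MTTP promoter shown, the second of 2 listed starts, held TGACCT, the reverse complement of AGGTCA, from position -50 to the gene's start, and TTTATA from position -227. That of APOH held GTTAAT from position -49 and its reverse complement ATTAAC from position -210. The APOE stretch, the first of 3 listed starts, held none of the 4 motifs, nor did the other MTTP start or any other promoter of a member. Of the 9 promoters of the 6 members, 1 held each of the nuclear receptor, HNF1 and TATA motifs and 0 held the HNF4 core. Among 35116 promoters of the same length, the nuclear receptor motif was in 13.8%, that of HNF1 in 6.88%, the TATA box in 11.5% and the HNF4 core in 1.20%. These matches describe the letters only.

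After SETD5 knockdown 8 of the 10 genes were lower, APOE was higher, and APOC1 did not pass. The limma fit took in all 12865 genes that averaged 1 CPM or more, and a gene passed at a Benjamini-Hochberg adjusted p under 0.05. Of all tested genes, 26.5% were called lower and 25.7% higher. The 10 log2 changes ran from -1.21 (APOC3) to 0.33 (APOE) with a median of -0.38, beside a median of -0.0012 over all tested genes. Control and knockdown values did not overlap for 8 genes in the lower direction and for APOE in the higher direction, where 28.8% and 28.6% of tested genes were separated in that way. Most of the fold changes were modest: the exception was APOC3, the one member called lower with a log2 change of -1 or less, as 0.676% of tested genes were. Added up, the 10 genes took 8843 to 9253 CPM of the control libraries and 6871 to 7473 CPM of the knockdown libraries, the mean falling to 0.796 times. Without APOB, which made up the largest part, the sum went from 4908 ± 169 to 4379 ± 26.7 CPM, 0.892 times the control (SD, n = 3 per group).

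**Figure D1:**
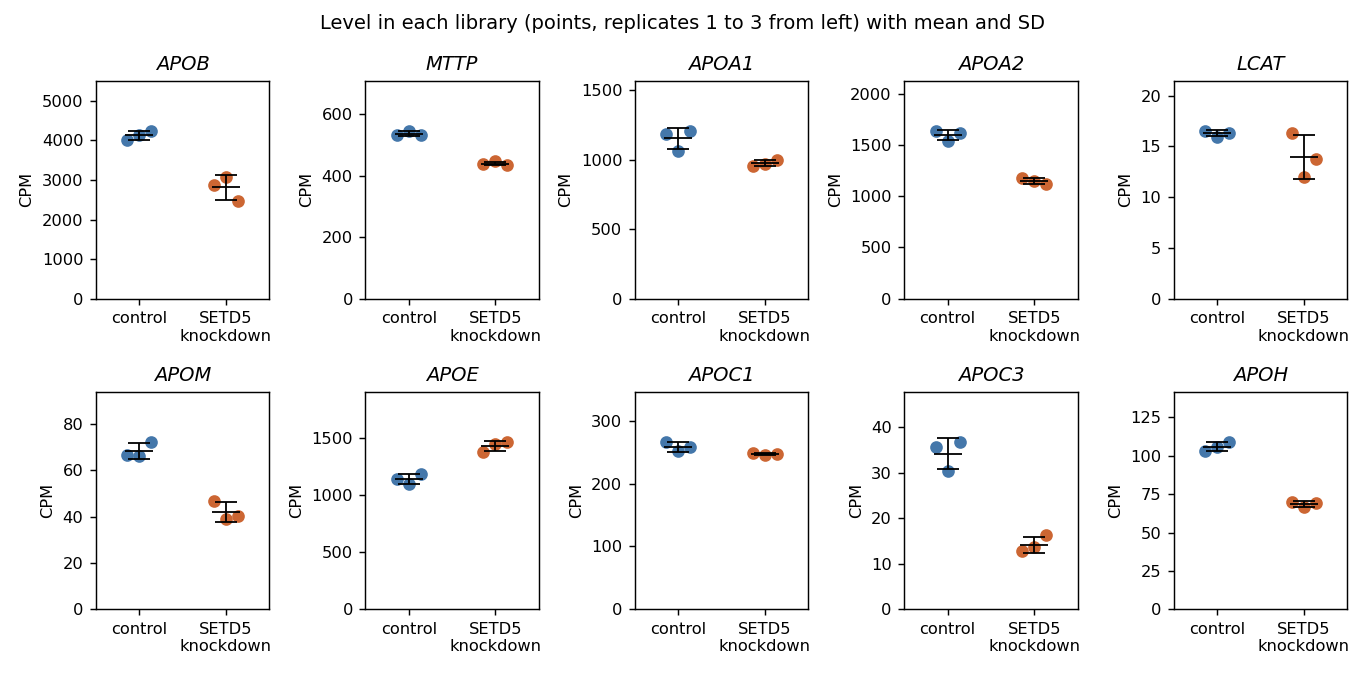
Level in CPM of each of the 10 genes in the 6 libraries (points, replicates 1 to 3 from left), with the group mean and SD (bars); every axis starts at 0. APOC3 stands at 30.3 to 36.7 CPM in controls and 12.8 to 16.2 CPM after knockdown, APOE is the gene whose knockdown points lie above the control points, and the LCAT points overlap.

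Of the assembly pair, APOB RNA was at 4014, 4128 and 4228 CPM in controls 1 to 3 and at 2880, 3085 and 2471 CPM in knockdown libraries 1 to 3. All knockdown libraries lay below all controls, with replicate 3 the lowest and the knockdown values the more spread of the groups. The mean fell from 4123 ± 107 to 2812 ± 312 CPM (SD, n = 3 per group), 0.682 times the control, a log2 change of -0.56 (95% interval -0.64 to -0.48, limma adjusted p = 4.77e-14). The knockdown libraries varied by a CV of 11.1%, against 2.59% in controls, and sampling of reads alone gives 0.467% at this depth of 41322 to 68565 reads. Leaving out any 1 library kept the APOB call. Without knockdown replicate 3 the log2 change was -0.468, above the upper end of the interval (-0.475). With no mean-variance trend in limma the adjusted p was 0.00200.

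MTTP, the triglyceride transfer protein that APOB needs for secretion, was at 531, 544 and 531 CPM in controls and 438, 446 and 434 CPM after knockdown. The groups were well apart and each was tight, with a CV of 1.44% and 1.41%. MTTP fell to 0.821 times the control, a log2 change of -0.28 with a standard error of 0.0264 (limma adjusted p = 2.13e-11). Within each library APOB was compared with MTTP as a log2 ratio of CPM + 1, in which library scaling cancels except for the added 1. That ratio was 2.92, 2.92 and 2.99 in controls and 2.71, 2.79 and 2.51 after knockdown, so APOB fell further than MTTP in every knockdown library. The mean ratio was 0.27 lower on the log2 scale. An exact two-sided permutation test gave p = 0.1, the smallest that 3 against 3 allows, for this and for both other ratios below, and it stayed at 0.1 after Benjamini-Hochberg adjustment over the 3 ratios.

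**Figure D2:**
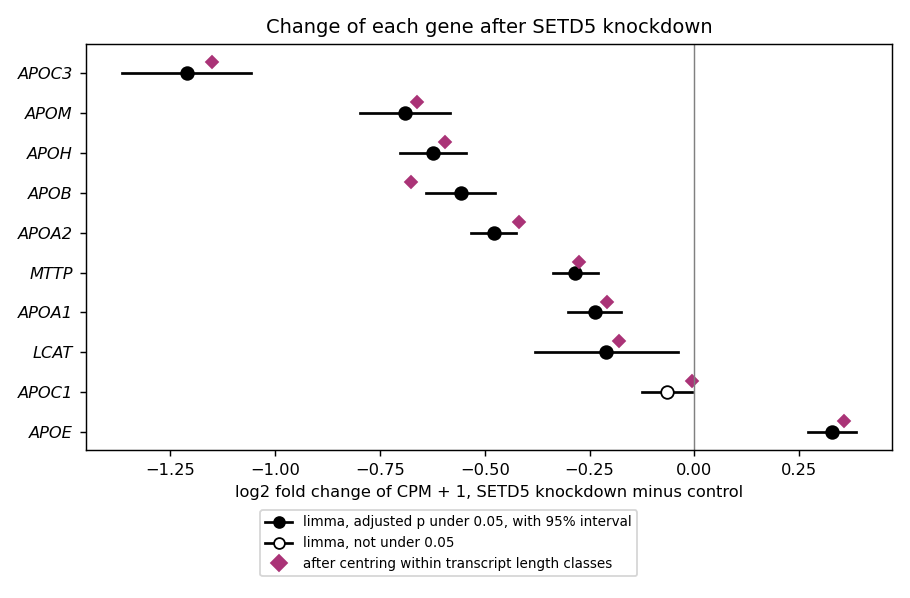
Log2 fold change of each gene, knockdown minus control, from limma (circles, filled where the adjusted p is under 0.05) with its 95% interval (lines), and the same change after centring each library within classes of transcript length (diamonds). APOC3 is at -1.21, APOE at 0.33, and APOC1 moves from -0.07 to -0.006 with that centring.

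Among HDL genes, APOA1, the main structural protein of HDL and the activator of LCAT, was at 1187, 1065 and 1204 CPM in controls and 957, 972 and 997 CPM after knockdown. The groups did not overlap, although control 2 lay closer to the knockdown libraries than to the other controls. APOA1 fell from 1152 ± 75.6 to 975 ± 19.9 CPM, 0.847 times (log2 change -0.24, 95% interval -0.30 to -0.17, limma adjusted p = 5.65e-08). Its span overlaps APOA1-AS in the annotation, and whether the counting used strand is not given in the sources used here.

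APOA2, another major HDL protein, had 1632, 1540 and 1614 CPM in controls and 1175, 1143 and 1115 CPM after knockdown. Every knockdown value was far below every control. The fall to 0.717 times the control gave a log2 change of -0.48 (95% interval -0.53 to -0.42, limma adjusted p = 2.39e-17), an interval that lies wholly below that of APOA1.

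APOM, the lipocalin that carries sphingosine-1-phosphate on HDL, was at 66.5, 66.3 and 72.3 CPM in controls and 47.0, 39.0 and 40.2 CPM after knockdown. No values overlapped, and knockdown replicate 1 was the highest of its group. The mean went from 68.4 ± 3.43 to 42.1 ± 4.33 CPM, 0.615 times (log2 change -0.69, 95% interval -0.80 to -0.58, limma adjusted p = 1.78e-13). In the annotation APOM overlaps BAG6, which stood at 221 and 239 CPM and was called higher (log2 change 0.11).

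LCAT, the enzyme that esterifies HDL cholesterol, had the lowest level of the 10 genes in every control library, with 16.5, 15.9 and 16.3 CPM in controls and 16.3, 12.0 and 13.8 CPM after knockdown. Knockdown replicate 1 fell inside the control range, so the groups overlapped. LCAT passed the test by a small margin (log2 change -0.21, 95% interval -0.38 to -0.04, limma adjusted p = 0.0347), on 195 to 282 reads per library. This call ended when control replicate 1, 2 or 3 or knockdown replicate 2 or 3 was left out. Without knockdown replicate 2 the log2 change was -0.11 with an adjusted p of 0.296, and without knockdown replicate 1 it was -0.32 with an adjusted p of 0.00312, so single libraries decide the size of the LCAT difference. LCAT also overlaps SLC12A4 in the annotation, a gene at 126 and 115 CPM that was called lower (log2 change -0.13).

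Of the exchangeable apolipoproteins, APOC3 changed most. It slows the breakdown of triglyceride by lipoprotein lipase and the uptake of remnants by liver. APOC3 was at 35.5, 30.3 and 36.7 CPM in controls and 12.8, 13.6 and 16.2 CPM after knockdown. Even the lowest control, replicate 2, was well above the highest knockdown value, replicate 3. The fall from 34.1 ± 3.38 to 14.2 ± 1.78 CPM (SD, n = 3 per group), 0.416 times the control, was a log2 change of -1.21 (95% interval -1.37 to -1.06, limma adjusted p = 6.50e-16). It rests on 205 to 606 reads per library, where sampling alone gives a CV of 4.39% in controls and 6.56% after knockdown, and the observed CVs were 9.91% and 12.6%.

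APOE, the ligand by which liver cells take up remnant particles, went the other way. Its levels were 1147, 1096 and 1184 CPM in controls and 1383, 1452 and 1468 CPM after knockdown. Every knockdown library was higher than every control. The mean rose from 1142 ± 44.0 to 1434 ± 44.8 CPM, 1.26 times the control (log2 change 0.33, 95% interval 0.27 to 0.39, limma adjusted p = 2.52e-12).

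APOC1, an inhibitor of cholesteryl ester transfer protein, was at 266, 251 and 258 CPM in controls and 249, 245 and 247 CPM after knockdown. All knockdown values lay just below the lowest control, replicate 2. The difference did not pass (log2 change -0.07, 95% interval -0.13 to -0.006, limma adjusted p = 0.0582). It passed when control replicate 2 was left out, with an adjusted p of 0.0162, and over all alternatives the adjusted p ran from 0.0162 to 0.876. APOC1P1, a pseudogene copy nearby, was listed at 1.22 and 0.958 CPM, and reads shared between the copies are uncertain.

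APOH, a plasma glycoprotein that binds anionic phospholipid and is the main target of antiphospholipid antibodies, was at 103, 106 and 109 CPM in controls and 69.8, 66.7 and 69.3 CPM after knockdown. Both groups were tight and far apart. APOH fell to 0.646 times the control (log2 change -0.62, 95% interval -0.70 to -0.55, limma adjusted p = 3.51e-16).

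Because longer transcripts give more reads, levels of different genes were compared as CPM per kilobase, with 1 GENCODE 29 transcript for each gene. In controls APOA2 was the highest at 3365 CPM per kilobase, followed by APOE at 946 and APOA1 at 939, whose libraries overlapped. APOC1 (375), APOB (292), MTTP (131) and APOH (90.4) followed, each apart from the next in all libraries. APOC3 at 62.1 and APOM at 57.7 CPM per kilobase overlapped, and LCAT was last at 10.8. After knockdown all neighbours in the order were apart. APOE at 1187 was then above APOA1 at 795, and APOM at 35.5 above APOC3 at 25.8 CPM per kilobase. APOB, the highest gene in CPM, was thus the fifth of the 10 in level per length, since its transcript of 14121 bases is the longest of them.

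Changes after knockdown differed by annotated transcript length. Tested genes with a transcript of up to 1000 bases had a median log2 change of -0.09, with 39.3% called lower, and genes above 10000 bases had a median of 0.11, with 18.0% called lower. APOA2, APOC1 and APOC3 belong to the short class and APOB to the long one, in which knockdown libraries 1 to 3 stood at 0.11, 0.14 and 0.05 over the control mean. APOB thus fell while its length class rose, and the library lowest in APOB, replicate 3, was also the lowest of the knockdown group for that class. When each library was centred on the median of each length class, a setting chosen after seeing the data, APOB was at -0.68, APOC3 at -1.15, APOA2 at -0.42 and APOE at 0.36, and all 4 passed limma. APOC1 was then at -0.006 (limma adjusted p = 0.876), and LCAT no longer passed (-0.18, limma adjusted p = 0.0668). MTTP at -0.28, APOA1 at -0.21, APOM at -0.66 and APOH at -0.59 passed as before, so 7 members were lower and 1 was higher with that centring.

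The 3' UTRs of the members held no copy of GCACCT, a 6-base word found in 28.6% of 11898 tested genes with a 3' UTR in the annotation. Genes with the word were called lower in 34.6% of cases and genes without it in 24.1%, with medians of -0.04 and 0.01, not adjusted for 3' UTR length. The members' 3' UTRs are short, at 57 to 301 bases apart from 1151 bases for MTTP, beside a median of 1112 bases over those genes.

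APOC3 and APOA1 lie side by side in a cluster with APOA4 and APOA5, and APOE lies next to APOC1, so the neighbours were compared. Within libraries the log2 ratio of APOC3 to APOA1 was -5.03, -5.09 and -5.00 in controls and -6.12, -6.06 and -5.86 after knockdown. The groups were far apart, by 0.97 on average, so the fall of APOC3 was larger than that of its neighbour in each knockdown library. APOA5, an activator of triglyceride clearance, was called lower at a level near the limit of the test (1.78 ± 0.627 to 0.998 ± 0.131 CPM, log2 change -0.45, limma adjusted p = 0.0172; -0.72 with a pseudocount of 0.1 CPM). The APOA5 groups overlapped. Its call ended without control replicate 1 or 3 or knockdown replicate 1, and with no mean-variance trend (limma adjusted p = 0.0569). APOA4, an apolipoprotein made mainly by intestine, was at 1.34 and 1.37 CPM. On the other flank SIK3, a kinase gene, rose slightly (log2 change 0.18).

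For the other cluster, the log2 ratio of APOC1 to APOE was -2.10, -2.12 and -2.19 in controls and -2.47, -2.57 and -2.57 after knockdown. All knockdown ratios were lower, by 0.40 on average. TOMM40, a subunit of the mitochondrial import pore next to APOE, fell from 174 to 162 CPM, PVRL2 from 168 to 138 CPM and CLPTM1, with overlapping groups, from 169 to 159 CPM, so APOE rose between neighbours that fell or did not pass. Over the 32 genes among the 2 nearest tested neighbours on each side of a member, 7 were lower, 9 higher and 16 did not pass. Their median log2 change was 0.04. Of all tested genes, 26.5% were called lower and 25.7% higher, near these counts.

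**Figure D3:**
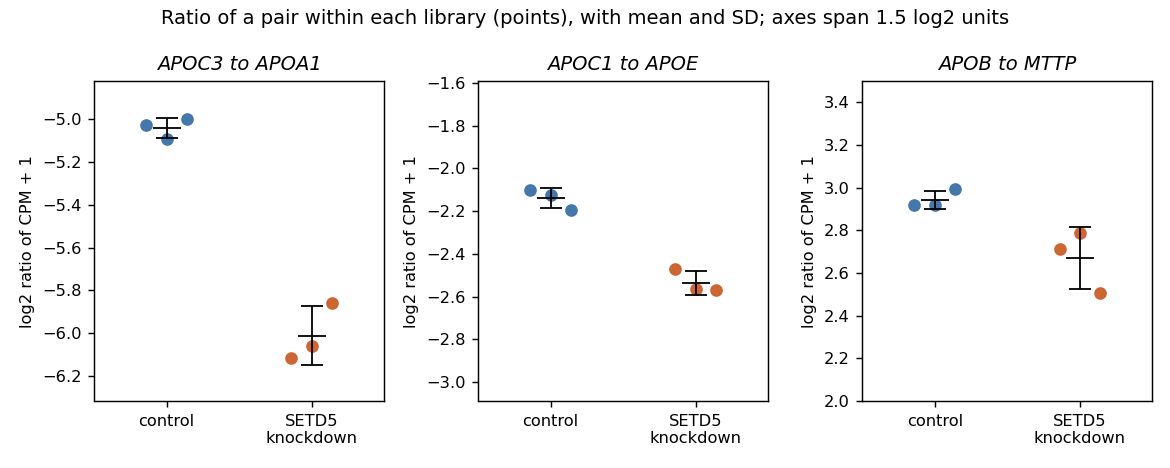
Log2 ratio of CPM + 1 between the genes of a pair within each library (points, replicates 1 to 3 from left), with group mean and SD; each axis spans 1.5 log2 units. The knockdown ratios lie below the control ratios in all 3 pairs, by 0.97 for APOC3 to APOA1, 0.40 for APOC1 to APOE and 0.27 for APOB to MTTP.

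**Figure D4:**
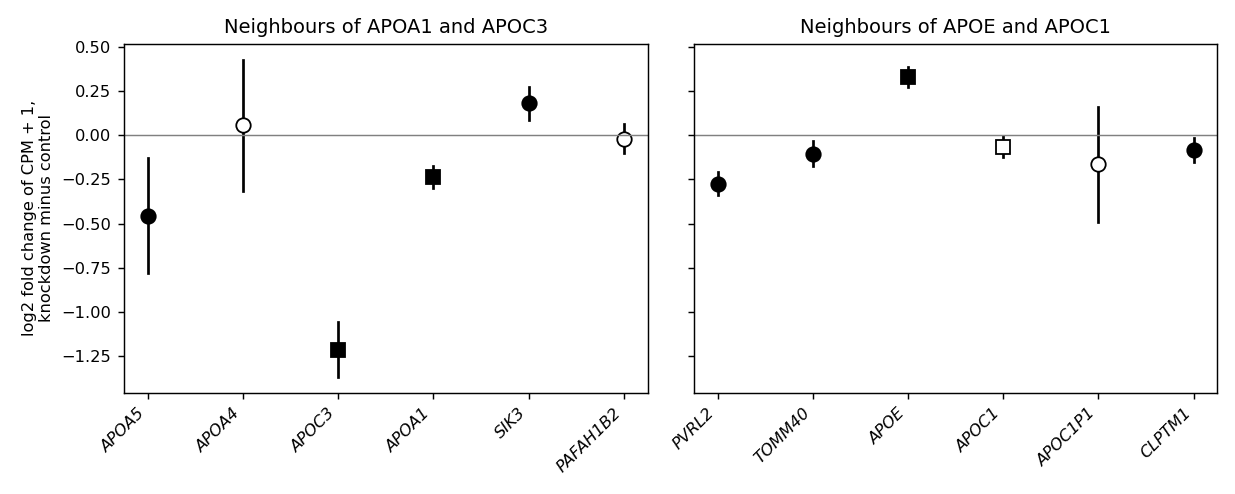
Log2 fold change with its 95% interval (lines) of the genes around APOC3 and APOA1 (left) and around APOE and APOC1 (right), in chromosome order among tested genes and not to scale; squares are members, filled symbols passed limma. APOC3 at -1.21 and APOE at 0.33 stand apart from the genes on both sides of them.

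Other genes of lipoprotein metabolism were read from 6 lists by role. Of 79 tested genes, 44 were lower, 13 were higher and 22 did not pass, with a median log2 change of -0.15. For this count and each list below, the shares over all tested genes are 26.5% lower and 25.7% higher. Among other apolipoproteins, 5 of 7 tested genes were lower and none was higher. CLU, a secreted chaperone carried on HDL, fell from 1427 ± 45.4 to 1186 ± 3.69 CPM. APOL6, an intracellular member of the APOL family, fell from 11.7 ± 0.968 to 5.78 ± 0.458 CPM, and LPA, which encodes apolipoprotein(a), was low throughout and fell from 2.02 to 1.12 CPM (log2 change -0.51, and -0.79 with a pseudocount of 0.1 CPM). APOO, a protein of mitochondrial cristae, missed the threshold at 12.6 and 11.2 CPM.

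Partners in particle assembly and secretion were lower in 14 of 20 genes and higher in 1, with a median log2 change of -0.28. SOAT2, which makes the cholesteryl ester of APOB particles, fell to 0.459 times the control, from 72.5 ± 6.06 to 33.2 ± 1.54 CPM. The sorting receptor SORT1, which binds APOB in the Golgi, fell from 75.1 ± 1.87 to 39.1 ± 1.10 CPM and CIDEB, a lipid droplet protein used in the lipidation of very-low-density particles, from 57.3 ± 1.47 to 33.9 ± 1.78 CPM. SMLR1, a small membrane protein of liver, went from 34.8 ± 0.124 to 20.6 ± 1.17 CPM. P4HB, the disulfide isomerase that forms the transfer complex with MTTP, fell to 0.817 times the control and the cargo receptor SURF4 to 0.922 times. The log2 change of P4HB was -0.29, and -0.18 with quantile normalization. The gene called higher was TM6SF2, which helps to lipidate particles, at 6.91 ± 1.46 and 8.54 ± 0.530 CPM (limma adjusted p = 0.0262, groups overlapping); it is named because it was the only such call, after its values were seen.

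HDL formation and remodelling genes were split, with 4 of 10 lower, 2 higher and a median near 0 (0.001). SCARB1, the HDL receptor, fell from 340 ± 14.6 to 247 ± 2.25 CPM, and PDZK1, the scaffold that holds SCARB1 at the membrane of hepatocytes, from 54.2 ± 2.43 to 22.0 ± 2.01 CPM, 0.406 times the control. PON1, an HDL-bound esterase, fell to 0.599 times while its paralog PON3 rose to 1.22 times and PON2 was at 354 and 358 CPM without passing. The cholesterol exporter ABCA1, which loads APOA1, was at 207 ± 3.32 and 224 ± 19.0 CPM. It was called higher (limma adjusted p = 0.0137), but the groups overlapped. The call ended without knockdown replicate 1 or 2 (log2 change 0.05 without replicate 2, 0.18 without replicate 3). It also ended with no mean-variance trend (limma adjusted p = 0.203), and the sign of the change turned (-0.005) after centring within length classes.

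Lipases and their regulators had 2 of 5 genes lower and 1 higher. LIPC, the hepatic lipase, rose from 101 ± 3.83 to 146 ± 4.50 CPM, 1.44 times the control (limma adjusted p = 7.79e-15). LMF1, needed for lipase folding, was at 11.2 and 8.90 CPM, a call that ended without control replicate 3 or knockdown replicate 2. The endothelial lipase LIPG did not pass, at 15.4 and 17.2 CPM (log2 change 0.16). It passed without control replicate 1 (0.23, limma adjusted p = 0.0268) and was at 0.08 without control replicate 2 and 0.04 after length centring. ANGPTL4, a lipase inhibitor, did not pass at 2.11 and 2.83 CPM (log2 change 0.31, limma adjusted p = 0.0550). It passed in 4 of 15 alternatives: without control replicate 3 (0.0153), with median centring (0.0467), with length centring (0.0332) and with the replicate number as a block (0.0486).

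Receptors and uptake genes were lower in 8 of 12 cases and higher in 1. The remnant receptor LRP1 fell from 741 ± 33.2 to 570 ± 74.8 CPM. LRP1 shared with APOB a wide spread after knockdown and its lowest value in replicate 3 (580, 639 and 490 CPM). That replicate was also the lowest of its group for the class of transcripts above 10000 bases. The log2 change of LRP1 was -0.39, and -0.50 after centring within length classes. The sorting receptor SORL1 fell from 45.3 ± 2.27 CPM to 0.442 times that level (log2 change -1.15). LRP2, an endocytic receptor of absorbing epithelia, rose from 10.7 ± 0.822 to 19.2 ± 2.86 CPM, and the receptor chaperone LRPAP1 fell to 0.908 times (log2 change -0.14, and -0.26 after centring within length classes). The heparan sulfate proteoglycan SDC1 missed the threshold at 192 and 183 CPM, and passed without control replicate 2 (limma adjusted p = 0.0485, 0.0485 to 0.449 over the alternatives).

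Transcription regulators of apolipoprotein genes were mixed, with 11 of 25 lower, 8 higher and a median of -0.07. HNF4A, a nuclear receptor that activates many apolipoprotein promoters, was measured at 350 ± 14.0 and 348 ± 3.65 CPM. Its groups overlapped and it was not called (log2 change -0.009, limma adjusted p = 0.809). The activator CEBPA fell to 0.793 times the control. ONECUT1 rose from 23.2 ± 1.13 to 41.3 ± 2.34 CPM. RORA fell to 0.596 times, MLXIPL, which responds to glucose, to 0.654 times and SREBF1, the regulator of fatty acid synthesis, to 0.769 times the control. These are RNA levels and say nothing about the activity of the factors.

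**Figure D5:**
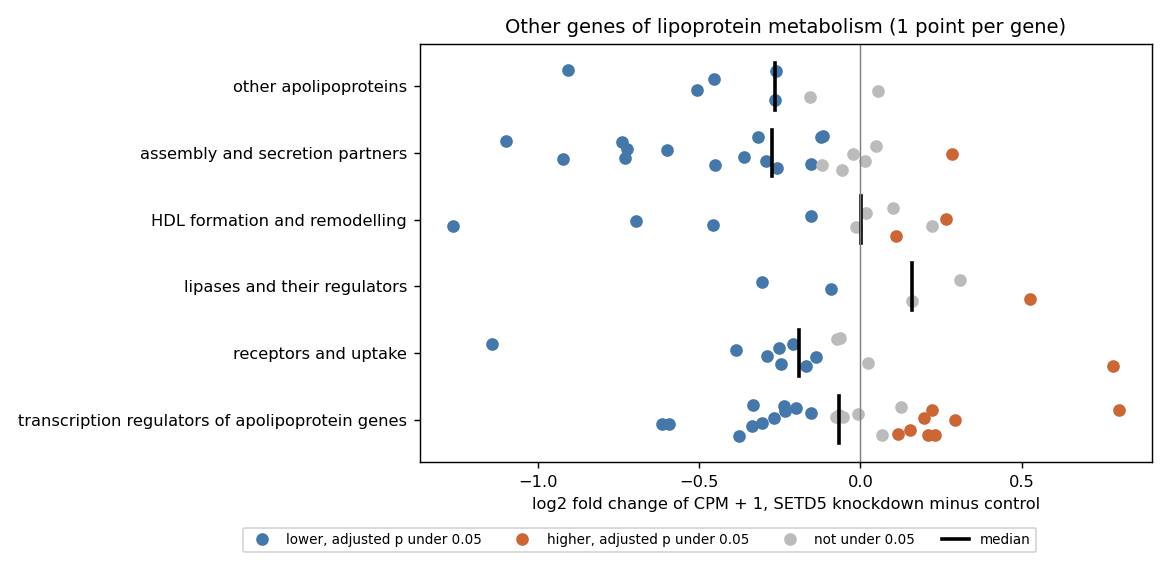
Log2 fold change, knockdown minus control, of 79 tested genes in 6 lists (1 point per gene; vertical jitter has no meaning), coloured by the limma call, with each list's median (bar). The assembly and secretion list has 14 of 20 genes lower, beside 26.5% of all tested genes, and the lipase list is led by LIPC at 0.53.

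The genes outside the members whose pattern over the 6 libraries was most like the mean standardised profile of the 9 called members were AMIGO2, HPN, SLC38A3, DLC1 and STEAP1. Their Pearson r with that profile was 0.9985 to 0.9993, as a description. The profile averaged APOE, which rose, with the members that fell, LCAT among them. The 6 libraries form 2 groups that share treatment, so this measure mainly ranks genes by how cleanly the groups separate. HPN, the hepatocyte serine protease hepsin, went from 20.4 to 10.9 CPM, and SLC38A3, a glutamine transporter, from 95.4 to 65.2 CPM.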

How the data were processed

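RNA of 3 control and 3 SETD5 knockdown Huh7 libraries was sequenced after poly(A) capture with a stranded kit, per the labels' protocols. Per the submitters' processing notes, R 3.3.0, STAR 2.5.1 and the builds hg19 and mm10 were used, in roles the notes do not state; how reads were counted, scaled and filtered is not given in the sources used here. As deposited by the authors, the data are 1 table of log2 values, named as normalized CPM, for 14200 genes; 2 to the power of a value minus 1 is the CPM, and 100% of values lie within 0.01 of a whole number of reads; voom on those reads called 6706 genes, the same number as the fit below. Recovered depth over the genes of the table was 14038447 to 17095417 reads per library. The limit for a gene at 0, 3 reads, equals 0.176 to 0.214 CPM. Intervals cover counting or replicate error only.

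Genes averaging 1 CPM or more (12865) were tested with limma 3.58.1 in R 4.3.3 (lmFit, eBayes with trend, two-sided, group as the only term, Benjamini-Hochberg over all 12865). The members, lists and alternatives were chosen with earlier results of these data known, although no measured value enters the rule for members. Named genes are all members, SETD5, up to 4 called genes with the largest change and up to 2 further abundant genes per list, the 2 nearest tested genes on each side of a member, and the 5 most alike genes; the text names a part, and some listed genes are not reported here. Of 95 list genes, 80 were in the table, 1 of them under an older symbol (APOA1BP), and 79 were tested. Between libraries of a group the chi-square of reads per gene was 1.25 to 2.10, and between groups 19.7 to 24.1, so no pair was a repeat deposit. Transcript lengths and 3' UTRs came from GENCODE 29, gene order and promoters from RefSeq on GRCh38.p14; no coordinates of the deposited genes are given. Scripts were tested on simulated data. Alternatives were another pseudocount (0.1 CPM), filters, scalings, no trend, voom, each library left out, the replicate block, and length centring.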

Additional observations from a re-analysis of the deposited data

How the results depend on the processing

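Over 16 alternatives the counts stayed close to those reported: 5868 to 6898 genes called over the whole table, 7 to 9 members lower, 1 member higher, 41 to 46 pathway genes lower and 11 to 15 higher. The SETD5 change was -0.61 to -0.57. Of the members, APOB, MTTP, APOA1, APOA2, APOM, APOE, APOC3 and APOH kept direction and call in all 16, with a highest adjusted p of 0.0133 (APOA1). LCAT lost its call in 8 of 16 and APOC1 gained one in 2. Over all 16 the LCAT log2 change ran from -0.32 to -0.11. With each library left out in turn, the ratio of APOC3 to APOA1 changed by -1.05 to -0.92, APOC1 to APOE by -0.43 to -0.38 and APOB to MTTP by -0.33 to -0.19. HNF4A, which did not pass, turned in sign under median centring (0.001), quantile normalization (0.015) and without control replicate 1 (0.018; -0.040 without control replicate 2), and ABCA1 under length centring (-0.005); the cause was not tested. With the replicate number as a block 6898 genes were called, and 9 members were lower, APOC1 among them (log2 change -0.07, adjusted p = 0.0397). Same-numbered libraries share only a number: their deviations correlated at -0.011, 0.054 and 0.042. Replicates 2 and 3 of both groups correlated best with their own number and replicate 1 did not. Depth limits LCAT and APOC3 most, at 195 and 205 reads in their lowest library.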
